A study of Mus musculus with 29 samples.

Results

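The immediate early genes Fos, Fosb, Jun, Junb, Egr1, Egr2, Arc, Npas4, Nr4a1 and Ier2 were followed through the RNA fractions of Aldh1l1-NuTRAP and Cx3cr1-NuTRAP mouse brain. They were taken by symbol and are 10 of the 36172 gene rows of the count table, each listed once. In the astrocyte line 8 of the 10 were lower in RNA bound to tagged ribosomes than in the unbound RNA, beside 24.8% of all genes tested. In the microglial line 2 of the 10 were lower in that comparison, beside 11.6% of all genes, a count that ran from 1 to 4 when a mouse was left out. In RNA of the cleared homogenate 9 of the 10 were higher than in RNA extracted from whole tissue, beside 15.7% of all genes, and 5 of the 10 without mouse 192, without mouse 209 or with all 29 libraries in 1 fit.

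Immediate early genes are transcribed within minutes of a stimulus, without the need for new protein synthesis, and in brain they are best known as a record of recent neuronal firing. Calcium and kinase signals act on factors that already sit at their promoters, among them CREB, which binds the cyclic AMP response element, and serum response factor, which binds the CArG box. Most of the products are transcription factors that start a second wave of genes, and their mRNAs and proteins are short-lived. Glia also induce several of them after injury, ischemia or tissue handling.

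Both lines carried the NuTRAP reporter, which labels ribosomes with EGFP and nuclei with mCherry and biotin after Cre recombination, and were of the genotypes Aldh1l1-Cre/Ert2+; NuTRAP+ (A) and Cx3cr1-Cre/Ert2+; NuTRAP+ (C). All animals received tamoxifen at about 3 months of age to start recombination, and no cre-negative or vehicle group was part of the libraries used here. For each mouse a brain hemisphere was homogenized in buffer with cycloheximide, which holds ribosomes on mRNA, and the cleared supernatant was kept as input (C Input) or incubated at 4 °C with an antibody to GFP for 1 h or overnight. RNA on the beads is the positive fraction (A Pos, C Pos) and RNA left in the supernatant the negative fraction (A Neg, C Neg), while whole tissue (C Slice) was extracted in the conventional way. A Pos and A Neg held 3 mice each (290, 293 and 294), C Input, C Neg and C Pos 6 mice each (155, 192, 194, 209, 210 and 277), and C Slice 5 of those 6, without mouse 155. Males and females were used, and the mice were killed by cervical dislocation or perfused under ketamine and xylazine, but the sources used here do not say which mouse was of which sex or killed in which way. The Cx3cr1 driver is also active in macrophages at the borders of the brain, and the region taken for C Slice is not given.

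Library totals ran from 4260949 counts (C Slice of mouse 210) to 26857866, and the lowest count of any member in any library was 31. Levels are given in CPM, counts per 1000000 of the library total. The labelled cell types were checked by marker sums. The 7 microglia markers summed to 2412 to 5772 CPM in C Pos and 306 to 343 CPM in C Input, and the 6 astrocyte markers to 8985 to 17080 CPM in A Pos and 1973 to 2840 CPM in A Neg. The 8 neuron markers summed to 1947 to 2560 CPM in A Pos and 8462 to 10510 CPM in A Neg, but to 7027 to 9702 CPM in C Pos and 8751 to 9500 CPM in C Input. The neuron markers of C Pos and C Input thus overlapped in range. Border-associated macrophage markers summed to 42.7 to 127 CPM in C Pos and 6.98 to 10.3 CPM in C Input. The balance of short and long transcripts differed between A Pos and A Neg of the same mouse, and between the libraries of mouse 290 and those of the other mice. The median log2 level of the shortest minus that of the longest of 5 equal length classes of genes was 0.60 in its A Pos library and -0.37 and -0.28 in the others, and -0.30 in its A Neg library and -0.93 and -1.07 in the others, so it was higher in A Pos in 3 of 3 mice. In C Neg it was -0.28 for mouse 155 and -0.95 to -0.82 for the other mice. Ier2, Junb and Fos, with 1522, 2301 and 2352 exon bases, lie in that shortest class, which ends at 2751 bases.

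The promoters are shown because the half-site of the cyclic AMP response element, the best known link from neuronal activity to these genes, is visible in them. RefSeq windows (GRCm38.p6, 250 bases before to 50 after a start) were at hand for 7 of the 10 members, namely Fos, Fosb, Jun, Junb, Egr2, Npas4 and Nr4a1. TGACG, searched on both strands so that its complement reads CGTCA, occurred in the windows of 6 of the 7, all but Jun, and in those of 23% of 27025 genes. A gene counted if any of its windows held a match, and Egr2 had several windows, some with 0 and some with 2 half-sites. Of all 32851 windows 20.8% held a match. The capitals mark the half-sites in 4 of these windows, which were picked to show 1 to 4 matches in members of different roles.
Fos, chr12:85473640-85473939, + strand: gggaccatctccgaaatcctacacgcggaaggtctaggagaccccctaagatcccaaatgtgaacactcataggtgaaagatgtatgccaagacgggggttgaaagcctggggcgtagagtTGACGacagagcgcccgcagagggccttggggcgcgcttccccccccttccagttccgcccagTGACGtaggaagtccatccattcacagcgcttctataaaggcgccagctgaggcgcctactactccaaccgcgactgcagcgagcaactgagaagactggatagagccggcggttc
Junb, chr8:84978699-84978998, - strand: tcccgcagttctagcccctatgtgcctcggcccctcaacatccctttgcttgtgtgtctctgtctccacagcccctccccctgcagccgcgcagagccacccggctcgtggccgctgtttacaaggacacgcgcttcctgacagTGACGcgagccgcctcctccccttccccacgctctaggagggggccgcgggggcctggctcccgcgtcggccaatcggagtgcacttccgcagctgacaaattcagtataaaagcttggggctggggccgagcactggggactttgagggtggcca
Nr4a1, chr15:101266596-101266895, + strand: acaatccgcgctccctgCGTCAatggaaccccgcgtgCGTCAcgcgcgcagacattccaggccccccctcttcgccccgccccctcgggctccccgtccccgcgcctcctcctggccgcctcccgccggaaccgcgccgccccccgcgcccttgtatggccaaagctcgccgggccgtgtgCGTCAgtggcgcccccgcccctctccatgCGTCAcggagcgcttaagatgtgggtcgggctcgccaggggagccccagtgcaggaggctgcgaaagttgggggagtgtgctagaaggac
Npas4, chr19:4989922-4990221, - strand: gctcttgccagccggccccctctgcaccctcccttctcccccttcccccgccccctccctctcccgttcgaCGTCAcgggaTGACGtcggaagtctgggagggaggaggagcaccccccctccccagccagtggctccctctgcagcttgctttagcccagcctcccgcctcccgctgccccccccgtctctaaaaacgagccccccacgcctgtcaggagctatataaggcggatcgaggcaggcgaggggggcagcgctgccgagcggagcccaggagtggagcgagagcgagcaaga
Fos holds 2 half-sites, whose first bases lie at -129 and -66 from the start, and Junb holds 1 at -106. Nr4a1 holds 4, all reading CGTCA on the printed strand, at -233, -213, -69 and -40. Npas4 holds CGTCA at -179 and TGACG at -169, close together. The full palindrome TGACGTCA, which contains the half-site, was in none of the 7 members' windows and in those of 2.03% of all genes. TATAAA occurred in Fos and Junb and in 15.7% of all genes, and the CArG box in Egr2 and in 1.81% of all genes. These matches describe letters in a window and were not tested as binding sites.

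The genes differed in level as well as in their pattern across fractions. Per kb of exon, Egr1 (70.1 ± 3.08 CPM per kb, SD, n = 6) and Arc (69.8 ± 5.75) had the highest levels in C Input, followed by Junb at 41.9 ± 4.89 and Nr4a1 at 39.9 ± 4.31. Fosb, a Fos relative that pairs with Jun proteins, stood at 5.71 ± 0.376 CPM per kb and Egr2, a zinc finger factor related to Egr1, at 4.01 ± 0.466. In A Pos the order was different, with Jun first at 23.1 ± 0.594 CPM per kb (n = 3), ahead of Junb at 19.98 ± 7.69 and Arc at 19.3 ± 6.32, whose spreads overlap it. Egr1 stood there at 16.1 ± 3.14 CPM per kb.

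**Figure D1:**
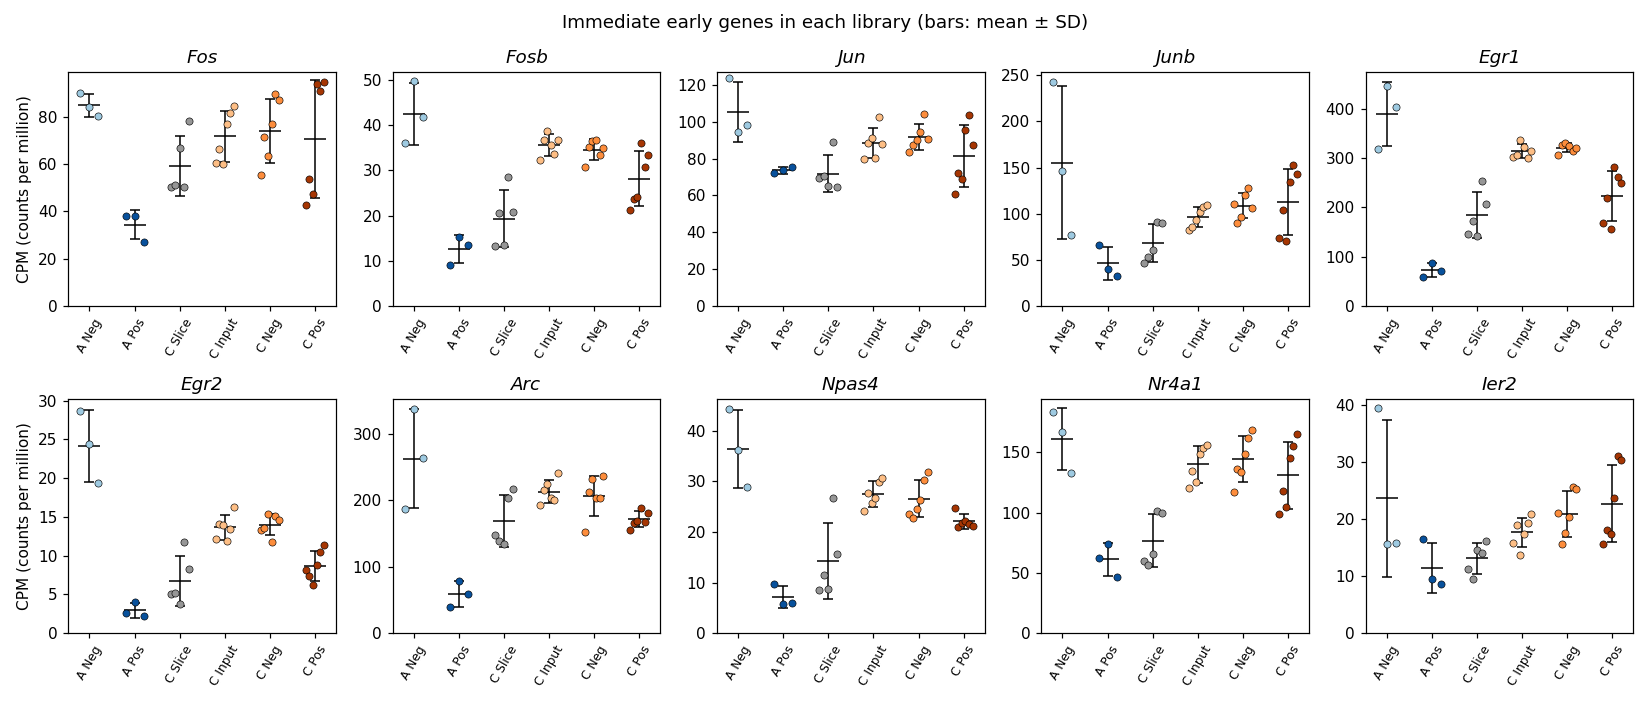
CPM of each of the 10 immediate early genes in every library, by group; points are libraries and bars the mean ± SD (3 mice in A Neg and A Pos, 5 in C Slice, 6 in the other groups), on linear axes that start at 0. A Neg has the highest mean for every gene, and A Pos the lowest for every gene but Jun, whose lowest mean is in C Slice.

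Across groups, A Neg had the highest mean CPM for all 10 genes and A Pos the lowest for 9 of 10, the exception being Jun. For Egr1 the order ran from A Neg (390.2 ± 65.7) over C Neg (321 ± 9.11) and C Input (314 ± 13.8) to C Pos (223 ± 51.6), C Slice (185 ± 47.0) and A Pos (72.1 ± 14.1). Of its neighbours in that order, C Input did not overlap C Pos and C Slice did not overlap A Pos, while the other neighbouring ranges overlapped. Fos ran from A Neg (85.0 ± 4.80) over C Neg (74.1 ± 13.4), C Input (71.8 ± 10.8), C Pos (70.7 ± 25.1) and C Slice (59.4 ± 12.8) to A Pos (34.4 ± 6.19), and only the last 2 neighbours did not overlap. Of the 10 genes, Jun had the smallest ratio of highest to lowest mean, from 105 ± 16.2 in A Neg to 71.8 ± 10.1 in C Slice, with every neighbouring pair overlapping. These orders, ratios and overlaps are on CPM by library total. The TMM factors described below were 0.708 to 0.779 in A Pos and 1.015 to 1.092 in C Slice. Dividing by a factor under 1 raises a level, so the low places of A Pos hold for CPM only. The orders on the TMM scale were not computed.

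The first comparison asked how ribosome-bound RNA of astrocytes differs from the RNA left behind, and 8 of the 10 genes were lower in A Pos at an adjusted p under 0.05, beside 24.8% of 13319 genes tested. The CPM ranges of the mice did not overlap for 9 of 10, all lower in A Pos, beside 41.7% of all genes. In bulk RNA, fewer cells of a type and less RNA per cell cannot be told apart. The scaling moved values in this comparison. Computed over all 29 libraries, the TMM factors (trimmed mean of M-values, which rescale the library totals) were 0.708 to 0.779 in A Pos and 0.973 to 1.03 in A Neg. Each fit used factors of its own, from the compared libraries and the genes tested. With total counts in place of TMM the median log2 fold change of all genes moved from 0.04 to -0.31 and that of the members from -1.41 to -1.76, and the share of higher calls fell from 52.0% to 33.6%. Fold changes below are on the TMM scale, from the edgeR quasi-likelihood test with Benjamini-Hochberg adjustment.

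Fos and Fosb, the Fos-family subunits of the AP-1 factor, were both lower. Fos measured 90.0, 84.3 and 80.5 CPM in A Neg of mice 290, 293 and 294 and 38.0, 38.0 and 27.2 CPM in A Pos, so every A Pos value was below every A Neg value. It fell by 0.96 on the log2 scale (SE 0.19, 1.94-fold, adjusted p = 0.00423), although without mouse 294 the adjusted p was 0.0514. With the mouse as a block the adjusted p was 3.22e-05. Fosb measured 36.0, 49.8 and 41.8 CPM in A Neg and 9.07, 15.2 and 13.5 CPM in A Pos and fell by 1.41 (SE 0.23, adjusted p = 0.00183).

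Jun and Junb, which dimerize with Fos proteins, behaved unequally. Jun measured 124, 94.2 and 98.1 CPM in A Neg and 71.9, 73.7 and 75.7 CPM in A Pos, ranges that do not overlap. On the TMM scale its log2 fold change was -0.17 ± 0.17 (SE, adjusted p = 0.414), and with total counts only it was -0.51 (adjusted p = 0.0291). Junb measured 243, 146 and 77.2 CPM in A Neg and 65.97, 39.7 and 32.3 CPM in A Pos, so the groups did not overlap but the mice differed widely in A Neg. It fell by 1.41 (SE 0.46, adjusted p = 0.0343). That call was lost without mouse 290 (adjusted p = 0.0543) and without mouse 293 (adjusted p = 0.151). With the mouse as a block the adjusted p was 7.25e-06. The A Pos to A Neg ratio of CPM was 0.271, 0.272 and 0.418 in mice 290, 293 and 294. In A Neg, mouse 290 was the highest for Junb, and the part of its length shift in this was not tested.

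The zinc finger factors had the lowest fold changes of the 10 members. Egr2 measured 28.7, 24.4 and 19.3 CPM in A Neg and 2.60, 3.95 and 2.21 CPM in A Pos and fell 6.48-fold (log2 fold change -2.70 ± 0.29 SE, adjusted p = 0.000342). Egr1, a factor that couples neuronal activity to synaptic genes, measured 318, 447 and 405 CPM in A Neg and 58.8, 86.9 and 70.7 CPM in A Pos and fell 4.25-fold (-2.09 ± 0.20, adjusted p = 0.000211). The groups were far apart for both genes and each mouse had the lower value in A Pos.

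Npas4, a factor largely confined to neurons and induced by calcium entry, measured 44.3, 36.2 and 28.9 CPM in A Neg and 9.68, 5.74 and 6.03 CPM in A Pos. It fell 4.04-fold (-2.01 ± 0.28, adjusted p = 0.00103). Nr4a1, an orphan nuclear receptor also induced in many cell types outside the brain, measured 184, 167 and 133 CPM in A Neg and 62.7, 73.9 and 46.9 CPM in A Pos and fell 2.08-fold (-1.05 ± 0.23, adjusted p = 0.00664).

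Arc, a synaptic protein whose mRNA travels into dendrites, measured 188, 338 and 264 CPM in A Neg and 39.5, 78.1 and 59.6 CPM in A Pos and fell 3.50-fold (-1.81 ± 0.30, adjusted p = 0.00208). Ier2, a short nuclear protein induced by growth factors and stress, measured 39.3, 15.6 and 15.7 CPM in A Neg and 16.5, 9.40 and 8.52 CPM in A Pos. Its groups overlapped, since the A Pos value of mouse 290 lay above the A Neg values of the other mice, and its log2 fold change was -0.69 ± 0.45 (adjusted p = 0.233). Within mice it was lower in A Pos in 3 of 3, and with the mouse as a block the adjusted p was 0.006. Without mouse 290 the adjusted p was 0.0232.

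The 8 neuron markers all fell in A Pos, with a median log2 fold change of -1.69. So did all 7 microglia markers (median -2.32), 5 oligodendrocyte markers (-2.53) and the 3 erythrocyte markers in the file (-2.02), while none of 4 endothelial markers passed the test. The part of RNA from these cells in the members' values was not tested, nor was that of transcript length, whose short minus long measure was higher in A Pos in 3 of 3 mice. Nr4a1, Fos, Ier2 and Jun lay above all of the 8 markers, between -1.05 and -0.17, where the least lowered marker was Gad1, a GABA synthesis enzyme, at -1.18. Egr1, Npas4 and Egr2 lay below all of them, where the most lowered was Nrgn, a postsynaptic calmodulin regulator, at -1.91. These positions are a description and were not tested against each other.

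**Figure D2:**
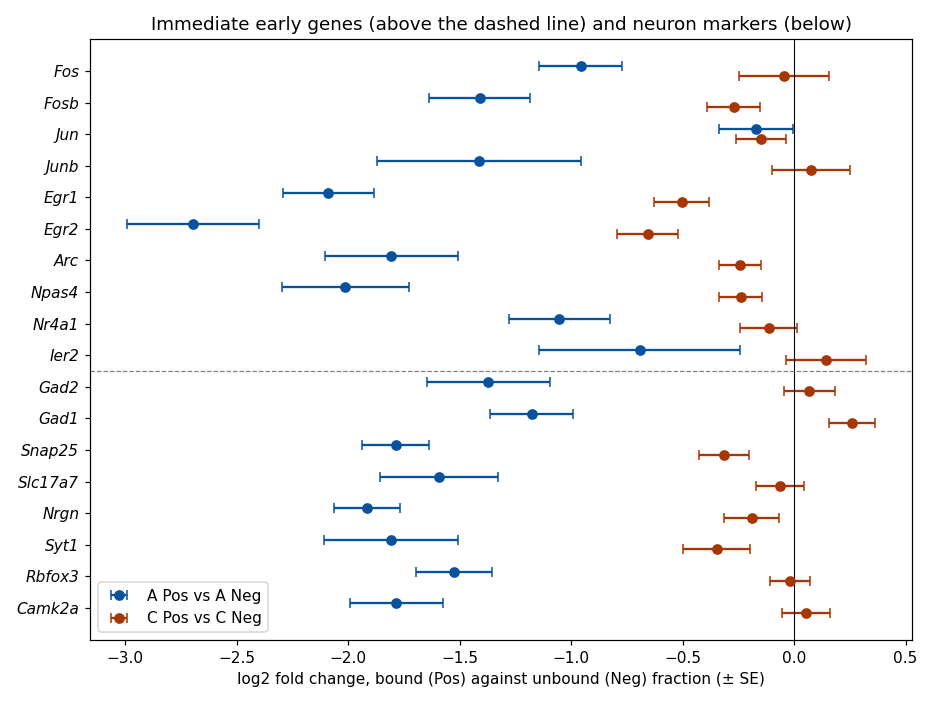
Log2 fold change of the positive against the negative fraction (± SE, edgeR) for the 10 immediate early genes, above the dashed line, and 8 neuron markers, below it, in the Aldh1l1 line (A, blue, 3 mice) and the Cx3cr1 line (C, brown, 6 mice). In the astrocyte line all points are left of 0, from -0.17 for Jun to -2.70 for Egr2; in the microglial line they lie between -0.66 and 0.26.

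Other activity-regulated genes were read from lists. All 10 neuronal immediate early effectors were lower in A Pos, led by Ptgs2, the inducible cyclooxygenase (-2.10), Nptx2, a secreted pentraxin of excitatory synapses (-1.91), and Pcsk1, a prohormone convertase (-1.71). Of 17 other immediate early transcription factors tested, 7 fell, led by Klf10 (-1.95), Egr3 (-1.84) and Egr4 (-1.76), and 1 rose, beside 26.8% of all genes higher and 24.8% lower. Of 15 feedback and stress effectors 4 were higher and 5 lower, shares near those of all genes. Cyr61, a matricellular protein and target of the YAP pathway, rose 4.28-fold and Gadd45g, a growth arrest gene, rose 3.77-fold, while Dusp5, a nuclear phosphatase of ERK, fell 2.82-fold. Among 8 heat shock genes, 1 rose, the co-chaperone Bag3 (3.57-fold), and 4 fell, led by Hsph1 (-1.19) and Hspa1b (-1.14). Of 15 upstream regulators, 8 fell, led by the activity-dependent factors Mef2c (-1.90) and Mef2a (-1.27) and the coactivator of serum response factor Mkl2 (-1.61), and 2 rose. Mef2a was near the threshold (adjusted p = 0.0478).

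The microglial line allowed a comparison of bound RNA with its own input. In C Pos against C Input, 5 of 10 were lower, beside 25.6% of 13838 genes, and none was higher, beside 23.3%; their median log2 fold change was -0.20 and that of all genes -0.00273. The 5 were Egr2 (-0.63 ± 0.14 SE, adjusted p = 0.00181), Egr1 (-0.48 ± 0.12, adjusted p = 0.00497), Fosb (-0.33 ± 0.12, adjusted p = 0.0318), Arc (-0.30 ± 0.07, adjusted p = 0.00265) and Npas4 (-0.30 ± 0.08, adjusted p = 0.00797). The count was 3 without mouse 192, when Fosb (adjusted p = 0.155) and Npas4 (adjusted p = 0.0599) lost their calls, and without mouse 194 Fosb also lost its call (adjusted p = 0.145). It was 2 when all 29 libraries were fitted together. Ier2 had a log2 fold change of 0.37 ± 0.17 (adjusted p = 0.0821, and 0.0347 with the mouse as a block). The short minus long measure was higher in C Pos than in C Input in 5 of 6 mice, all but mouse 155 (-1.001 to -0.40 and -1.27 to -0.83), and none of the 3 members of the shortest class, Fos, Junb and Ier2, was among the lowered members. The part of transcript length in these values was not tested.

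Egr1 ran from 156 over a median of 235 to 282 CPM in C Pos and from 301 over 311 to 338 CPM in C Input, with no overlap and 6 of 6 mice lower in C Pos. Arc ran from 156 over 168 to 189 CPM and from 193 over 210.3 to 241 CPM, and again 6 of 6 mice were lower. Egr2 had 6.17, 8.45 and 11.3 CPM as lowest, median and highest in C Pos and 11.9, 13.7 and 16.2 CPM in C Input, again without overlap. Fosb, with 21.2, 27.4 and 36.0 CPM in C Pos and 32.4, 36.2 and 38.8 CPM in C Input, overlapped in range and was lower in 5 of 6 mice. Its C Pos to C Input ratio was 0.654, 0.644 and 0.620 in mice 155, 192 and 194 and 1.01, 0.919 and 0.911 in mice 209, 210 and 277, so the lower values lay mainly in the first 3. The Egr1 ratio divided the same mice, at 0.554, 0.715 and 0.462 against 0.874, 0.873 and 0.797. For Npas4, with 21.1, 21.7 and 24.8 CPM as lowest, median and highest in C Pos and 24.1, 27.2 and 30.7 CPM in C Input, mouse 155 alone went the other way.

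Against C Neg, a comparison that shares the C Pos libraries, 2 of 10 were lower, Egr2 (-0.66 ± 0.14, adjusted p = 0.00308) and Egr1 (-0.50 ± 0.12, adjusted p = 0.00902), beside 11.6% of 13776 genes. None was higher, beside 12.8%. The count was 1 without mouse 192, when Egr1 had an adjusted p of 0.0507, and 4 without mouse 155, when Arc (adjusted p = 0.00638) and Npas4 (adjusted p = 0.0273) joined. All genes past the threshold numbered 3352, and 1747 without mouse 192, while without mouse 194 they were 1151 higher and 868 lower. None of the 8 neuron markers passed the test in this comparison, with values from -0.35 to 0.26, while all 5 oligodendrocyte markers (median -0.68) and 4 of 6 astrocyte markers were lower. Against C Input, 1 of 8 neuron markers, the vesicle protein gene Syt1 (-0.52, adjusted p = 0.00412), all 5 oligodendrocyte markers (median -0.63) and 4 of 6 astrocyte markers were lower. Of 3 pericyte and smooth muscle markers 2 were lower against C Input and 1 against C Neg. Of 4 endothelial markers 2 were higher against C Input and 1 against C Neg. Their part in the members' values was not tested.

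Fos, Junb and Ier2 were spread widely in C Pos. Fos measured 42.9, 53.7 and 47.5 CPM in C Pos of mice 155, 192 and 194 and 94.1, 91.1 and 94.8 CPM in mice 209, 210 and 277, with nothing between 53.7 and 91.1. The first 3 mice were below their own input and the last 3 above it. Jun showed the same division in C Pos, at 60.8, 71.9 and 68.7 CPM in the first 3 mice and 95.4, 104 and 87.2 CPM in the last 3. Nr4a1 was at 99.1, 118 and 104 CPM in the first 3 and at 146, 155 and 165 CPM in the last 3. Fosb was at 21.2, 23.7 and 24.1 CPM against 36.0, 30.8 and 33.4 CPM, Egr1 at 168, 220 and 156 CPM against 282, 263 and 251 CPM, and Egr2 at 8.11, 7.36 and 6.17 CPM against 8.79, 10.5 and 11.3 CPM, so these called members divided the same mice. Arc overlapped between the 2 sets, at 156 to 169 and 168 to 189 CPM, and Npas4 lay between 21.1 and 24.8 CPM in all 6 mice. Junb was above its input in mice 192, 209, 210 and 277, from 103 to 153 CPM in C Pos, and below it in mice 155 and 194, at 73.6 and 70.5 CPM. Ier2 was at 15.6, 18.1 and 17.3 CPM in the first 3 mice and 23.7, 31.0 and 30.4 CPM in the last 3.

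Several, though not all, of the marker sums of other cells and the length measure differed between the same mice as Fos in C Pos. In mice 155, 192 and 194 the 3 erythrocyte markers in the file summed to 54.3, 93.5 and 21.3 CPM, and in mice 209, 210 and 277 to 188, 349 and 271 CPM. The 4 endothelial markers summed to 57.7 to 75.3 CPM in the first 3 mice and 119 to 127 CPM in the last 3, and the 8 neuron markers to 7027 to 7853 and 8974 to 9702 CPM. The 6 astrocyte markers summed to 1845 to 2295 CPM in the first 3 and 2808 to 2843 CPM in the last 3, and the 4 pericyte and smooth muscle markers, of which Acta2 was at 0 throughout, to 16.6 to 19.6 and 28.9 to 37.9 CPM. The short minus long transcript measure was -1.001, -0.62 and -0.89 in the first 3 mice and -0.59, -0.40 and -0.59 in the last 3, and Fos, Junb and Ier2 belong to the shortest class. Microglia markers summed to 3293 to 5772 CPM in the first 3 and 2412 to 3370 CPM in the last 3, ranges that overlap, and so did the oligodendrocyte sums, at 1213 to 2858 and 2519 to 3144 CPM. The border-associated macrophage sums went the other way, at 60.1, 51.5 and 127 CPM in the first 3 and 42.7, 47.1 and 48.9 CPM in the last 3. Every other marker of these lists that the file holds was above 0 in at least 1 C Pos library. The part of these in the Fos values was not tested, and the mice were not set apart by any label.

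**Figure D3:**
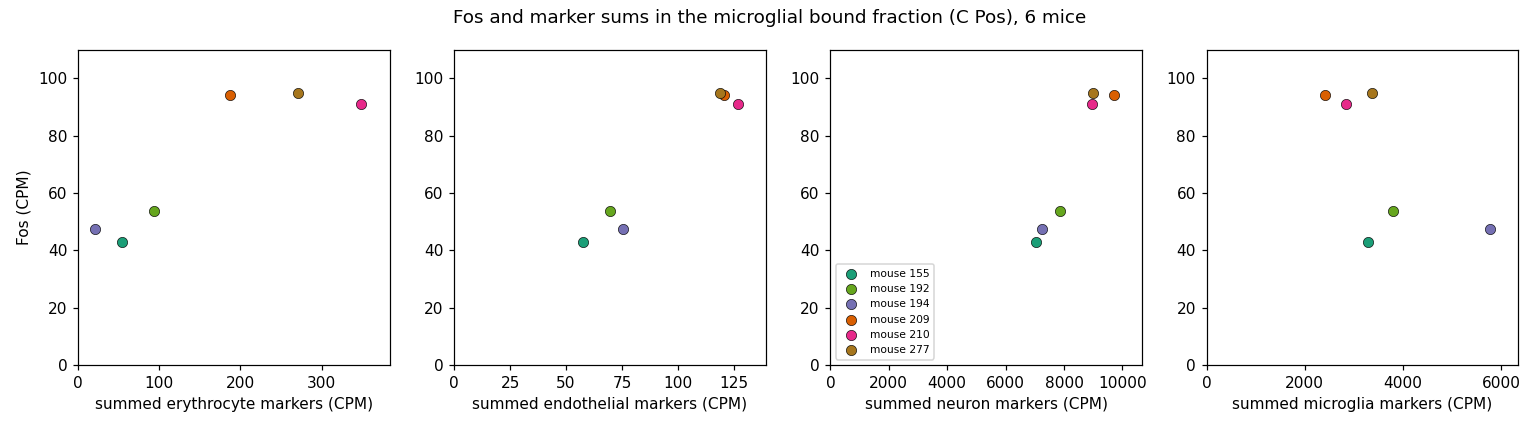
Fos (CPM, y axis) against the summed CPM of erythrocyte, endothelial, neuron and microglia markers (x axes) in C Pos, each point a mouse, with all axes starting at 0. Mice 209, 210 and 277 lie above 90 CPM of Fos and to the right in the first 3 panels, and mice 155, 192 and 194 lie below 60 CPM.

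The counts of the lists in C Pos against C Input stand beside 23.3% of all genes higher and 25.6% lower, and several are near or under those shares. The other immediate early transcription factors held 3 higher and 6 lower of 17. Atf3, a stress-induced factor, rose 1.83-fold from 3.85 to 6.95 CPM, while Nr4a3, a relative of Nr4a1, fell 2.84-fold and Egr3 fell 2.02-fold. Neuronal effectors held 2 higher and 5 lower of 10, with Rgs2, a regulator of G protein signals, higher (0.78 ± 0.09) and Homer1, a postsynaptic scaffold, lower (-0.73 ± 0.08). Zfp36, which destabilizes cytokine mRNAs in myeloid cells, was the 1 feedback gene that rose, 1.95-fold, and 3 of 15 fell. Of 15 upstream regulators 3 rose and 9 fell, led by Elk4 (-1.03), and of 8 heat shock genes 1 fell, Hsph1 (-0.27). Against C Neg, where 12.8% of all genes were higher and 11.6% lower, 4 of 17 transcription factors were higher, with Atf3 (0.96 ± 0.15) and Maff (0.81 ± 0.23), and 4 lower, with Nr4a3 (-0.85 ± 0.27). Of 10 effectors 2 were higher, with Rgs2 (0.65 ± 0.09), and 3 lower, with Homer1 (-0.50 ± 0.09) and Nptx2 (-0.47 ± 0.10). Of 15 feedback genes 1 was higher, Zfp36 (0.81 ± 0.16), and 2 were lower, and 3 of 15 upstream regulators and 1 of 8 heat shock genes were lower.

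The supernatant after removal of tagged ribosomes was compared with the input taken before it. In C Neg against C Input 0 of 10 passed the edgeR test in either direction, and none at an unadjusted p under 0.05 or with DESeq2, beside 1.41% of 13748 genes higher and 4.7% lower. Fos had 55.5, 74.3 and 89.8 CPM as lowest, median and highest in C Neg and 59.98, 71.9 and 84.8 CPM in C Input. Egr1 had 307, 324 and 332 CPM in C Neg and 301, 311 and 338 CPM in C Input. The members' log2 fold changes ran from -0.04 (Npas4) to 0.25 (Ier2), with SEs of 0.04 to 0.13, and all 10 ranges overlapped. With the mouse as a block Junb (0.18, adjusted p = 0.0257) and Ier2 (0.24, adjusted p = 0.0361) were higher in C Neg, in 5 of 6 mice each. Both are in the shortest length class, and the short minus long measure was higher in C Neg than in C Input in 6 of 6 mice (-0.95 to -0.28 and -1.27 to -0.83), whose part in these calls was not tested. Over all genes the block raised the count past the threshold from 840 to 5115. Of the lists, 2 of 17 transcription factors (Egr3, -0.56, and Maff, -0.69) 1 of 10 effectors (Pcsk1, -0.32) and 2 of 15 upstream regulators, with Mef2a (-0.72), were lower, and 4376 genes had an unadjusted p under 0.05.

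Input was then compared with whole tissue, using the C Input libraries of the comparisons above. In C Input, 9 of 10 members were higher than in C Slice, beside 15.7% of 13608 genes, and none was lower, beside 14.6%. Their median log2 fold change was 0.64 and that of all genes -0.00321. The ranges did not overlap for 4 of 10, beside 8.34% of all genes. Without the whole tissue library of mouse 210, the shallowest of all libraries, 9 of 10 were higher as well.

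Egr2 measured 4.99, 5.11, 3.74, 11.7 and 8.27 CPM in C Slice of mice 192, 194, 209, 210 and 277 and 11.9 to 16.2 CPM in C Input, and was 2.19-fold higher in C Input (log2 fold change 1.13 ± 0.22 SE, adjusted p = 0.0015). Npas4 measured 8.45, 11.4, 8.81, 26.8 and 15.7 CPM in C Slice and 24.1 to 30.7 CPM in C Input, and was 2.11-fold higher (1.07 ± 0.23, adjusted p = 0.00374). For both, mouse 210 had the highest whole tissue value, which for Npas4 reached into the input range.

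Fosb measured 13.3, 20.5, 13.5, 28.5 and 20.9 CPM in C Slice and 32.4 to 38.8 CPM in C Input (0.93 ± 0.16, adjusted p = 0.00067). Nr4a1 measured 59.8, 56.6, 65.6, 101 and 100.0 CPM in C Slice and 121 to 157 CPM in C Input (0.88 ± 0.15, adjusted p = 0.00107). Egr1 measured 145, 173, 142, 255 and 207 CPM in C Slice and 301 to 338 CPM in C Input (0.77 ± 0.12, adjusted p = 0.000577). These 3 and Egr2 are the members without overlap.

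The fold changes of the other members were smaller than these. Junb measured 46.6, 53.4, 60.1, 90.5 and 90.3 CPM in C Slice and 82.4 to 109 CPM in C Input. Arc measured 148, 138, 134, 203 and 218 CPM in C Slice and 193 to 241 CPM in C Input, with mice 210 and 277 inside the input range. Jun measured 69.5, 70.6, 64.8, 89.2 and 64.8 CPM in C Slice and 79.8 to 102 CPM in C Input, and here only mouse 210 reached the input range. Ier2 measured 11.3, 9.46, 14.5, 14.1 and 16.1 CPM in C Slice and 13.8 to 20.8 CPM in C Input. Junb (0.51 ± 0.16, adjusted p = 0.0304), Ier2 (0.44 ± 0.14, adjusted p = 0.0276), Arc (0.34 ± 0.12, adjusted p = 0.0491) and Jun (0.30 ± 0.09, adjusted p = 0.0172) passed the test, but with mouse 192 or mouse 209 left out none of the 4 did, and the count was then 5. It was 6 without mouse 194, when Ier2 kept its call, and Arc also lost its call with RLE size factors, a scaling by median ratios in place of TMM (adjusted p = 0.0511). Jun lost its call without mouse 277 as well (adjusted p = 0.0771). Fos measured 50.2, 51.1, 66.7, 50.4 and 78.5 CPM in C Slice and 59.98 to 84.8 CPM in C Input. It had a log2 fold change of 0.26 ± 0.13 (adjusted p = 0.159, and 0.0322 with the mouse as a block), and was higher in the input in 5 of 5 mice. Over all genes 4123 passed, and 2574 to 2632 without mouse 192, 194 or 209.

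**Figure D4:**
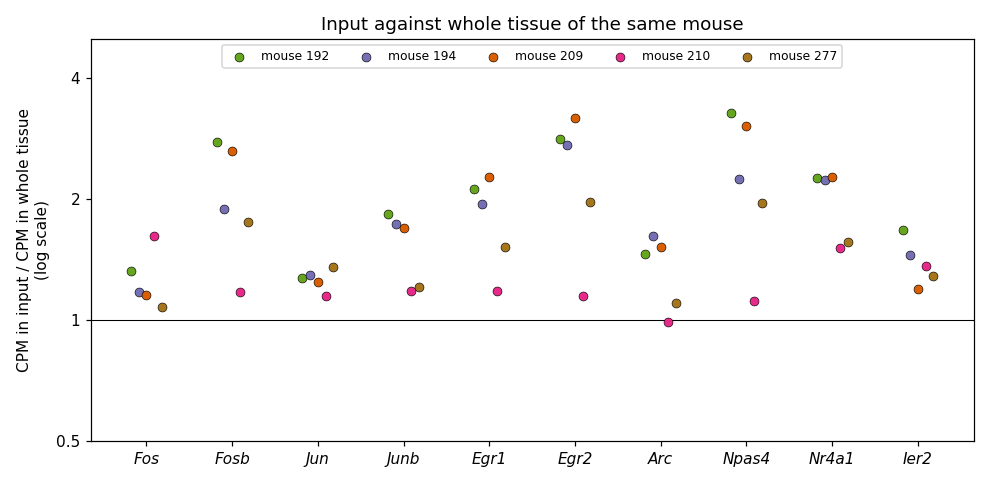
CPM in C Input divided by CPM in C Slice of the same mouse (log axis) for each immediate early gene, 5 mice per gene; the line marks a ratio of 1. All points but the Arc point of mouse 210 lie above 1, and mouse 210 has the lowest ratio for 8 of the 10 genes.

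Composition moved between these preparations too. The 8 neuron markers were higher in C Input for 5 and lower for 1, with a median of 0.43, and summed to 8851 CPM in C Slice of mouse 210 and 6287 to 7311 CPM in that of the other mice. The endothelial sum was 105 CPM in C Slice of mouse 210, 175 to 195 CPM in that of the other mice and 60.7 to 77.8 CPM in C Input. The 4 endothelial markers were all lower in C Input (median -1.35), as were the 5 oligodendrocyte markers (-0.50), the 3 pericyte and smooth muscle markers tested (-1.19) and 3 of 6 astrocyte markers. The part of composition in the members' differences was not tested. Beside the 15.7% of all genes higher and 14.6% lower, 9 of 17 other immediate early transcription factors were higher in C Input, led by Nr4a2 (0.94 ± 0.11) and Egr4 (0.90 ± 0.19), and 3 were lower, led by the vascular factor Klf4 (-0.96 ± 0.13). Among feedback genes 6 of 15 were higher, led by Dusp5 (1.11 ± 0.16), and 3 of 10 neuronal effectors were higher, Homer1 (0.58), Ptgs2 (0.58) and Plk2 (0.52), while 2 were lower. Of 15 upstream regulators 9 were higher, among them Nab2, a corepressor that binds EGR proteins (1.70-fold), and 1 was lower. Of 8 heat shock genes none was higher and 3 were lower, Hspb1 (-0.53), Dnajb1 (-0.26) and Hspa8 (-0.14).

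**Figure D5:**
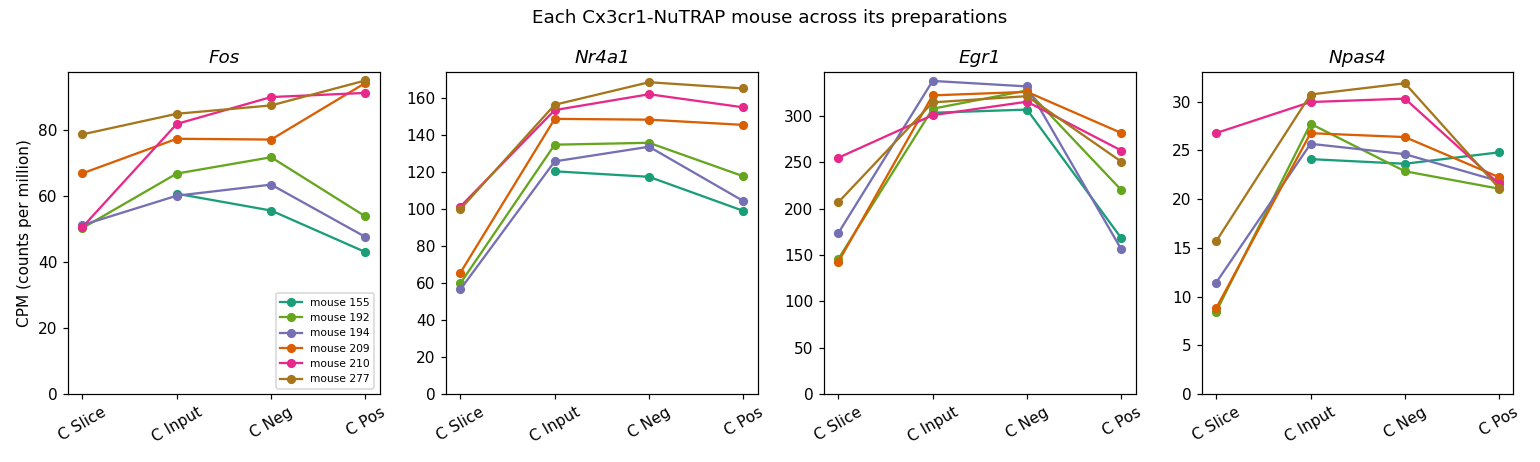
CPM of Fos, Nr4a1, Egr1 and Npas4 in each Cx3cr1-NuTRAP mouse (lines) across whole tissue, input, negative and positive fraction, on linear axes from 0; mouse 155 has no whole tissue library. Input and negative fraction lie close together for each mouse, whole tissue lies lower, and in C Pos Egr1 is lower than the input in every mouse while Fos goes up in 3 mice and down in 3.

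The bound fractions of the lines were then set side by side. In A Pos against C Pos 8 of 10 members were lower, beside 33.1% of 13676 genes lower and 30.6% higher, and 8 of 10 had CPM ranges that did not overlap, beside 42% of all genes. Those ranges are by library total, while the TMM factors over all 29 libraries were 0.708 to 0.779 in A Pos and 0.9685 to 1.032 in C Pos. Narrow gaps can close on the TMM scale, on which overlap was not computed. Each line had its own mice, and the study describes a longer delay from tamoxifen to tissue collection for the Cx3cr1 than for the Aldh1l1 line, so line, mouse set and that delay cannot be told apart here or in the comparisons between lines that follow. The highest A Pos value of Egr1 was 86.9 CPM and the lowest C Pos value 156 CPM, and for Arc these were 78.1 and 156 CPM. For Fos they were 38.0 and 42.9 CPM, a narrow gap, and for Nr4a1 73.9 and 99.1 CPM. Jun and Ier2 overlapped, at 71.9 to 75.7 CPM and 8.52 to 16.5 CPM in A Pos inside or beside 60.8 to 104 CPM and 15.6 to 31.0 CPM in C Pos. Npas4 (-1.33 ± 0.19 SE, adjusted p = 0.000137), Egr1 (-1.31 ± 0.20, adjusted p = 0.000197), Egr2 (-1.25 ± 0.26, adjusted p = 0.00154) and Arc (-1.23 ± 0.18, adjusted p = 0.000134) had the lowest fold changes. Fosb (-0.84 ± 0.21, adjusted p = 0.00427) and Nr4a1 (-0.78 ± 0.20, adjusted p = 0.00479) passed as well. Fos (-0.71 ± 0.28, adjusted p = 0.0411) lost its call without any 1 of mice 209, 210, 277, 290, 293 or 294 (adjusted p up to 0.154), with RLE size factors (0.0667) and with at least 100 counts (0.0563), and Junb (-0.97 ± 0.30, adjusted p = 0.015) lost it without mouse 293 (0.0578) or mouse 294 (0.0706). Jun was at 0.18 ± 0.15 (adjusted p = 0.328) and at -0.14 with total counts only, a scale on which the median of all genes was -0.39 against -0.08 with TMM and the share of higher calls 31.4% against 48.0%. All 8 neuron markers (median -1.44), all 5 oligodendrocyte markers (-1.46) and 1 of 4 endothelial markers were lower in A Pos. Of 3 pericyte and smooth muscle markers 1 was higher. The short minus long measure was higher in A Pos in every library (-0.37 to 0.60 against -1.001 to -0.40). Their part in these values was not tested.

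The negative fractions of the lines were compared in the same way. Egr2 was the 1 member of 10 past the threshold, higher in A Neg at 19.3 to 28.7 CPM against 11.7 to 15.4 CPM in C Neg (0.82 ± 0.14, adjusted p = 0.0463), beside 0.125% of 13613 genes higher and 0.125% lower. That call was lost without each of mice 192, 194, 209, 210, 277 and 293 in turn (adjusted p 0.0925 to 0.2), while without mouse 290 Egr1 passed too (0.41, adjusted p = 0.0307). The other 9 had log2 fold changes from 0.19 to 0.56, all toward A Neg, and did not pass the test.

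Whether the bound to unbound ratio differed between lines was tested as an interaction on the A Pos, A Neg, C Pos and C Neg libraries already described, and 8 of 10 members had a lower ratio in the Aldh1l1 line, beside 29.9% of 13983 genes lower and 25.5% higher. The difference was -2.08 ± 0.28 on the log2 scale for Egr2 (adjusted p = 5.82e-06), -1.82 ± 0.24 for Npas4 (adjusted p = 4.8e-06), -1.63 ± 0.22 for Egr1 (adjusted p = 6.04e-06) and -1.61 ± 0.25 for Arc (adjusted p = 3.24e-05). Junb (-1.53 ± 0.43, adjusted p = 0.00586), Fosb (-1.18 ± 0.23, adjusted p = 0.000256), Nr4a1 (-0.98 ± 0.24, adjusted p = 0.00207) and Fos (-0.95 ± 0.32, adjusted p = 0.0185) also passed, Fos not without mouse 209 (0.0531) or mouse 294 (0.0767). With the mouse as a block the adjusted p of Fos was 0.000945. Jun was at -0.06 ± 0.19 (adjusted p = 0.796) and Ier2 at -0.87 ± 0.43 (adjusted p = 0.0939, and 0.00494 with the mouse as a block). The 8 neuron markers had a median of -1.53 in this test, and that of all genes was -0.11. All 5 oligodendrocyte (median -2.03) and 7 microglia markers (-5.82) were lower as well, while all 6 astrocyte markers were higher (3.55). The part of these cells in the members' values was not tested. All 10 neuronal effectors were lower in the same test, as were 8 of 17 other immediate early transcription factors, while 1 of those was higher. With total counts only the median of all genes was -0.38 and the share of higher calls 31.3% against 46.1%.

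Mice that were high for a gene in the input were also high for it in the negative fraction for 2 genes. Over 6 mice, Nr4a1 in C Input and C Neg had r = 0.965 (exact permutation p = 0.00139, adjusted over 10 relations 0.0139) and rho = 1 (exact permutation p = 0.00278, adjusted 0.0278), and r = 0.963 without the 2 mice farthest from the median. Fos had r = 0.945 (exact permutation p = 0.00833, adjusted 0.0417) and rho = 0.886 (exact permutation p = 0.0333, adjusted 0.111), and r = 0.915 without those 2 mice. In C Input against C Pos, Nr4a1 had r = 0.996 (exact permutation p = 0.00139, adjusted 0.0139), rho = 1 (exact permutation p = 0.00278, adjusted 0.0278) and r = 0.998 without the 2 farthest mice. The value 0.00139 is the smallest these permutations can give for r. For Nr4a1 the mice 155, 192 and 194 were below the mice 209, 210 and 277 in all of C Input, C Neg and C Pos, so the relation follows the same division as Fos in C Pos. Fos divided the mice likewise in C Input, at 59.98 to 66.7 and 77.2 to 84.8 CPM, and in C Neg, at 55.5 to 71.6 and 77.0 to 89.8 CPM. With 3 mice on each side, no relation within a side was computed for either gene. Fos in C Input against C Pos had r = 0.972 (exact permutation p = 0.0125, adjusted 0.0625) and rho = 0.886 (exact permutation p = 0.0333, adjusted 0.167). In C Pos its mice fell into 2 separate sets of 3, so this r does not show a relation within a set. Of the other members, none passed in either family at an adjusted p under 0.05.

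Spread between mice differed by group. The SD of log2(CPM + 1) was above the median of all genes for 10 of 10 members in C Slice (0.19 to 0.64, beside a median of 0.16), 8 of 10 in C Pos and A Neg, 9 of 10 in A Pos, 7 of 10 in C Input and 6 of 10 in C Neg. Npas4 and Egr2 in C Slice (0.64 and 0.57) were above 98.5% and 97.7% of genes, and Fos in C Pos (0.53) above 94.4%. Egr1 in C Neg (0.04) was above 1.87% of genes, and Npas4 in C Pos (0.08) above 5.11%. With 3 to 6 mice in a group these SDs are rough.

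Genes that followed Fos were named by Pearson r over the 29 libraries, which share mice, fractions and depth. For levels the 5 nearest of 14122 genes were Dusp1, an immediate early phosphatase of MAP kinases (r = 0.883), Hba-a1 (0.865), Hba-a2 (0.861) and Beta-s (0.851), which code for haemoglobin chains, and Ppp1r7 (0.849), a phosphatase regulator. Among members the nearest were Nr4a1 (0.831) and Junb (0.815). After removal of the group means the nearest were Alas2, the erythroid enzyme that starts haem synthesis (0.901), Rnf144b (0.854), Ppp1r7 (0.851), Aldh1a2, a retinoic acid enzyme of meninges and vessels (0.840), and Cpne4 (0.838). Alas2 lay between 0.437 and 9.72 CPM in C Pos and 2.75 and 10.1 CPM in C Input. Among the members themselves, deviations from the group means were most alike for Fosb and Egr1 (r = 0.905), and for Junb and Ier2 (0.838), and least for Arc and Ier2 (-0.26).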

How the data were processed

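RNA of 29 libraries from 9 mice was sequenced on a strand-specific polyA protocol. Per the labels and the study's methods, the authors aligned reads to mm10 and quantified and normalized them in Strand NGS. The deposited raw columns are estimated counts, since 82.4% of values above 0 are not whole (tolerance 1e-06), and the deposited log2 columns, normalized with DESeq by the authors, were not used. Counts were rounded for the tests. Library totals of 4260949 to 26857866 set the precision of low levels, and no depth interval is given because replicates carry the error.

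Tests covered genes above 20 counts throughout 1 or more of the compared groups and were run with edgeR 4.0.16 (R 4.3.3; TMM, robust quasi-likelihood fit and test), with only the compared groups in each fit, and Benjamini-Hochberg adjustment over all genes tested (threshold 0.05). P-values measure the spread between these mice. Levels are CPM of library totals, per kb of GENCODE vM21 merged exons where genes are compared. Junos and Prdx2 overlap exons of Jun and Junb on the opposite strand, and counting was strand-aware per the methods. The fits were tested on simulated data with 200 changed genes. No 2 libraries held identical values.

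The members and lists were chosen with earlier results of these data known. From each list the 3 genes with the largest fold change among those past the threshold were open to naming. Fos was compared with other genes by Pearson r of log2(CPM + 1), and the 5 highest were named. Mouse relations used exact permutation tests, two-sided, with sets called separate where the largest gap exceeded 50% of the range with at least 2 mice on each side. The length comparison and the order of Fos in C Pos were looked at after values were seen.

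Fractions with the same number came from the same mouse. Deviations from group means correlated within mice at r = 0.566 to 0.748 between A Pos and A Neg, 0.0685 to 0.752 between C Neg and C Input, -0.362 to 0.26 between C Pos and C Input, -0.385 to 0.32 between C Pos and C Neg, and -0.251 to 0.086 between C Input and C Slice. The fit with the mouse as a block was an alternative, beside relative log expression (RLE) factors, total counts, DESeq2 1.42.0, no filter, at least 100 counts, all 29 libraries in 1 fit, a pseudocount of 0.1 for the mouse relations, and leaving out each mouse. An added alternative, chosen after seeing the data, left out the whole tissue of mouse 210.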

Additional observations from a re-analysis of the deposited data

Results flagged for a closer look

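Within groups of 5 or 6 mice, 2 of 40 sets of member values held a mouse far from the others, where chance gives about 1 in 20. Jun in the whole tissue of mouse 210, the shallowest library, was at 89.2 CPM and in the other C Slice libraries at 64.8 to 70.6 CPM. Npas4 in C Pos of mouse 155 was at 24.8 CPM and in the other mice at 21.1 to 22.2 CPM.

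The positive to negative ratio differed between the astrocyte and the microglial line for 8 members, tested as an interaction in edgeR. On the log2 scale the difference was -0.951 for Fos, -1.18 for Fosb, -1.53 for Junb, -1.63 for Egr1, -2.08 for Egr2, -1.61 for Arc, -1.82 for Npas4 and -0.979 for Nr4a1. The neuron markers moved alike in this test (8 of 8 lower, median -1.53), as did the oligodendrocyte (5 of 5, -2.03) and microglia markers (7 of 7, -5.82). All 6 astrocyte markers were higher. The part of these cells in the members' values was not tested.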

How the results depend on the processing

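Of 1090 alternative values of the members' fold changes, 1002 kept their direction and side of the threshold, 49 lost and 20 gained a call, and 19 reversed, none of the last for a fold change past the threshold. In C Neg against C Input the 840 calls over all genes became 2056 with DESeq2, 281 without a filter, 59 with all 29 libraries in 1 fit, 5115 with the mouse as a block, and 0 to 3815 when a mouse was left out, where 0 was reached without each of mice 192, 209, 210 and 277. Its members past the threshold became 2 with the mouse as a block. With all 29 libraries in 1 fit, members past the threshold became 2 in C Pos against C Input and 5 in C Input against C Slice, where all genes became 2450. In A Neg against C Neg the 1 member became 0 with total counts, without a filter, with at least 100 counts and with all libraries, and 3 with DESeq2, which added Fosb and Egr1; the 34 genes became 517 with DESeq2 and 14 without a filter. In the relations of C Input with C Pos, TMM-scaled CPM gave 3 past the threshold against 1. They were Nr4a1 (r = 0.989), Fos (r = 0.9705) and Npas4, whose r was negative (-0.875). Their adjusted exact permutation p values were 0.0278, 0.037 and 0.037. The Fos mice fell into 2 sets of 3 in C Pos, so its r does not show a relation within a set.

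When a mouse was left out, members past the threshold ranged from 3 to 5 in C Pos against C Input, 1 to 4 in C Pos against C Neg, 5 to 9 in C Input against C Slice and 0 to 2 in A Neg against C Neg. All genes ranged from 3587 to 9731 in A Pos against A Neg, with 3662 without mouse 293 and the lowest without mouse 294, from 1747 to 4273 in C Pos against C Neg, from 2574 to 5395 in C Input against C Slice and from 0 to 133 in A Neg against C Neg. Leaving out mice turned the sign of uncalled values: Fos in C Pos against C Input (-0.0875 to 0.0648) and against C Neg (-0.131 to 0.0317), Junb in C Pos against C Neg (-0.00840 to 0.177), Arc (-0.0568 to 0.00573) and Npas4 (-0.0609 to 0.00658) in C Neg against C Input, Ier2 in A Neg against C Neg (-0.403 to 0.433) and Jun in the interaction (-0.142 to 0.0939). Fos in C Pos against C Input was 0.00697 with RLE factors, 0.00684 with DESeq2, 0.0306 with at least 100 counts and 0.01999 with all libraries, Jun in A Pos against C Pos was -0.140 with total counts, and Jun in the interaction 0.00699 with all libraries. The cause of these shifts was not tested.

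With the mouse as a block, Ier2 gained a call in A Pos against A Neg (-0.61), C Pos against C Input (0.34), C Neg against C Input (0.24) and the interaction (-0.77), Junb in C Neg against C Input (0.18) and Fos in C Input against C Slice (0.31), and no other member call changed. No block was fitted between lines, which share no mice. For the mouse relations no test was repeated without a mouse; r without the 2 farthest mice is given beside them. Groups of 3 mice and the shallow whole tissue library of mouse 210 limit what is detectable.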
